A study of Mus musculus with 13 samples.

Results

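The Pax genes encode paired-box transcription factors, and the mouse has 9 of them, Pax1 to Pax9. All 9 were examined by name among the 22367 protein-coding genes that GENCODE vM1 places on chromosomes 1 to 19, X and Y (mouse genome build mm9). They lie on 6 chromosomes. For each gene, the deposited ChIP-seq peaks over the promoter (the start site with 1000 bp on either side) and over the gene body were collected from 5 peak lists.

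Pax proteins bind DNA through a paired domain, and some members also carry a homeodomain or part of one. They are known as regulators of organ and cell fate in the embryo, each in a few tissues, and are mostly not in use in embryonic stem cells. Genes of this kind are classical targets of Polycomb repressive complex 2 (PRC2), the enzyme complex that methylates lysine 27 of histone H3 and so leaves the repressive mark H3K27me3. AEBP2 is an accessory subunit of one form of PRC2. By sequence, the family falls into 4 subfamilies, with Pax1 and Pax9 in I, Pax2, Pax5 and Pax8 in II, Pax3 and Pax7 in III, and Pax4 and Pax6 in IV.

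The study asked where AEBP2 sits on the genome of mouse embryonic stem cells (mESCs) and how it relates to PRC2. All 5 lists came from wild-type cells with no Aebp2 mutation, labelled as a male 129/1 line and grown in serum with leukaemia inhibitory factor. Endogenous AEBP2, precipitated with a rabbit antibody raised for the study, and H3K27me3 have 2 replicates each. FS2-AEBP2 is AEBP2 with a Flag-StrepII tag, expressed from a plasmid under the pCAG promoter, with 1 sample and no replicate. The labels give the same line for FS2-AEBP2, whereas the study's methods name the E14 line for tagged AEBP2, and its ChIP followed another protocol, with blocked beads. The labels name the histone antibody as H3K27 without a methylation state, and the study's text calls the mark H3K27me3. For H3K27me3, list names and sample records appear to number the replicates in opposite order. The records were followed, and which of the lists is replicate 1 is uncertain. The 8 other samples, which include SUZ12, inputs and the Aebp2tr/tr cells, were not analysed here. Peak lists hold no expression values, so the identity of the cells could not be checked against marker genes.

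The lists held 2877 and 6779 peaks for AEBP2 replicates 1 and 2, 2884 for FS2-AEBP2, and 14112 and 9275 for H3K27me3 replicates 1 and 2. Each peak has a start, an end, a whole-number score and one or more inner stretches, shorter blocks inside the broad peak. The scale of the score is not stated, so a peak was ranked only within its own list, as the percentage of that list's peaks with a lower score. Read depth is unknown. A missing peak means that the signal did not reach the authors' threshold, not that the protein or the mark was absent. No test was run on these lists: with 1 or 2 lists per target, each gene is described by its values in every list beside those of all promoters.

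The bases before 4 of the start sites show the range of CpG content in the family, since CpG-rich DNA is where PRC2 is known to gather in mESCs. The 200 bases directly upstream of the annotated start site are printed along the strand of the gene from the mm9 build, with every CG step in capitals. Pax9 and Pax7 had a promoter peak in all 5 lists, Pax8 in 4 and Pax4 in 1.
Pax9, chr12:57792554-57792753, plus strand: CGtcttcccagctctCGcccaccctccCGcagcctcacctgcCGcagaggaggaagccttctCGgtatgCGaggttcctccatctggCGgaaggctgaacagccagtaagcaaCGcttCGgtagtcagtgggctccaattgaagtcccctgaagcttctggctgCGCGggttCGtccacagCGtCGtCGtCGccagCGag
Pax7, chr4:139389446-139389645, minus strand: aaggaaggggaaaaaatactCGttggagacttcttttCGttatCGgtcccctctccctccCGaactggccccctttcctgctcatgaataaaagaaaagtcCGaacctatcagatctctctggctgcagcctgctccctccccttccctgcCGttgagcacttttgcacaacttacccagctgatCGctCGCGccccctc
Pax8, chr2:24331120-24331319, minus strand: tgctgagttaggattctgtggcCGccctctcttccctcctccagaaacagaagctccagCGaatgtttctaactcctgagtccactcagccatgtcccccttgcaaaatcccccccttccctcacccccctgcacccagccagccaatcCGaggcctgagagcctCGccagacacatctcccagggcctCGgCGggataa
Pax4, chr6:28399354-28399553, minus strand: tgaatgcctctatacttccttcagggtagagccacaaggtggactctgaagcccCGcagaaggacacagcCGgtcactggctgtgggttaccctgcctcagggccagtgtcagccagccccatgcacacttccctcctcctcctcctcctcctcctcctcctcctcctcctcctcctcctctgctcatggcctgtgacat

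These windows held 17 CG steps at Pax9, 9 at Pax7, 6 at Pax8 and 2 at Pax4. Over the same window of all 22367 genes the median was 7, and 90.4% of the windows held at least 1 CG step. Pax4 and Pax8 were below that median and Pax7 and Pax9 above it. The other 5 genes, all of them in all 5 lists, had 7 CG steps at Pax5, 10 at Pax2 and Pax3, 11 at Pax1 and 13 at Pax6, so that Pax5 was at the median and 1 step above Pax8. Of all windows, 78.4% held fewer CG steps than that of Pax9.

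Most Pax promoters carried AEBP2 and H3K27me3 together. AEBP2 replicate 1 had a peak at 7 of the 9 promoters, against 9.08% of all promoters. AEBP2 replicate 2 had one at 8 of 9 (22.3% of all promoters), and FS2-AEBP2 also at 8 of 9 (6.53%). H3K27me3 was called at all 9 Pax promoters in replicate 1, where 17.0% of all promoters had a peak, and at 8 in replicate 2 (17.7%). Both AEBP2 replicates called the same 7 genes (8.44% of all promoters), both H3K27me3 replicates 8 genes (15.0%), and all 5 lists 7 genes (4.57%). These 7 were Pax1, Pax2, Pax3, Pax5, Pax6, Pax7 and Pax9.

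Over the gene body, AEBP2 replicate 1 had a peak at 7 Pax genes, where 10.3% of all gene bodies did. AEBP2 replicate 2 had one at 8 (24.9%) and FS2-AEBP2 at 8 (7.69%). Each H3K27me3 replicate marked all 9 gene bodies, against 20.8% of all gene bodies in replicate 1 and 20.2% in replicate 2. For the AEBP2 lists the exceptions were those of the promoter, with Pax4 unmarked by all 3 and Pax8 by replicate 1. The gene body begins at the start site, and every promoter peak except that of FS2-AEBP2 at Pax5 also lay over the body. The 2 counts are therefore not independent. Gene length, from 7020 bp at Pax4 to 180302 bp at Pax5, was not taken into account in the shares.

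**Figure D1:**
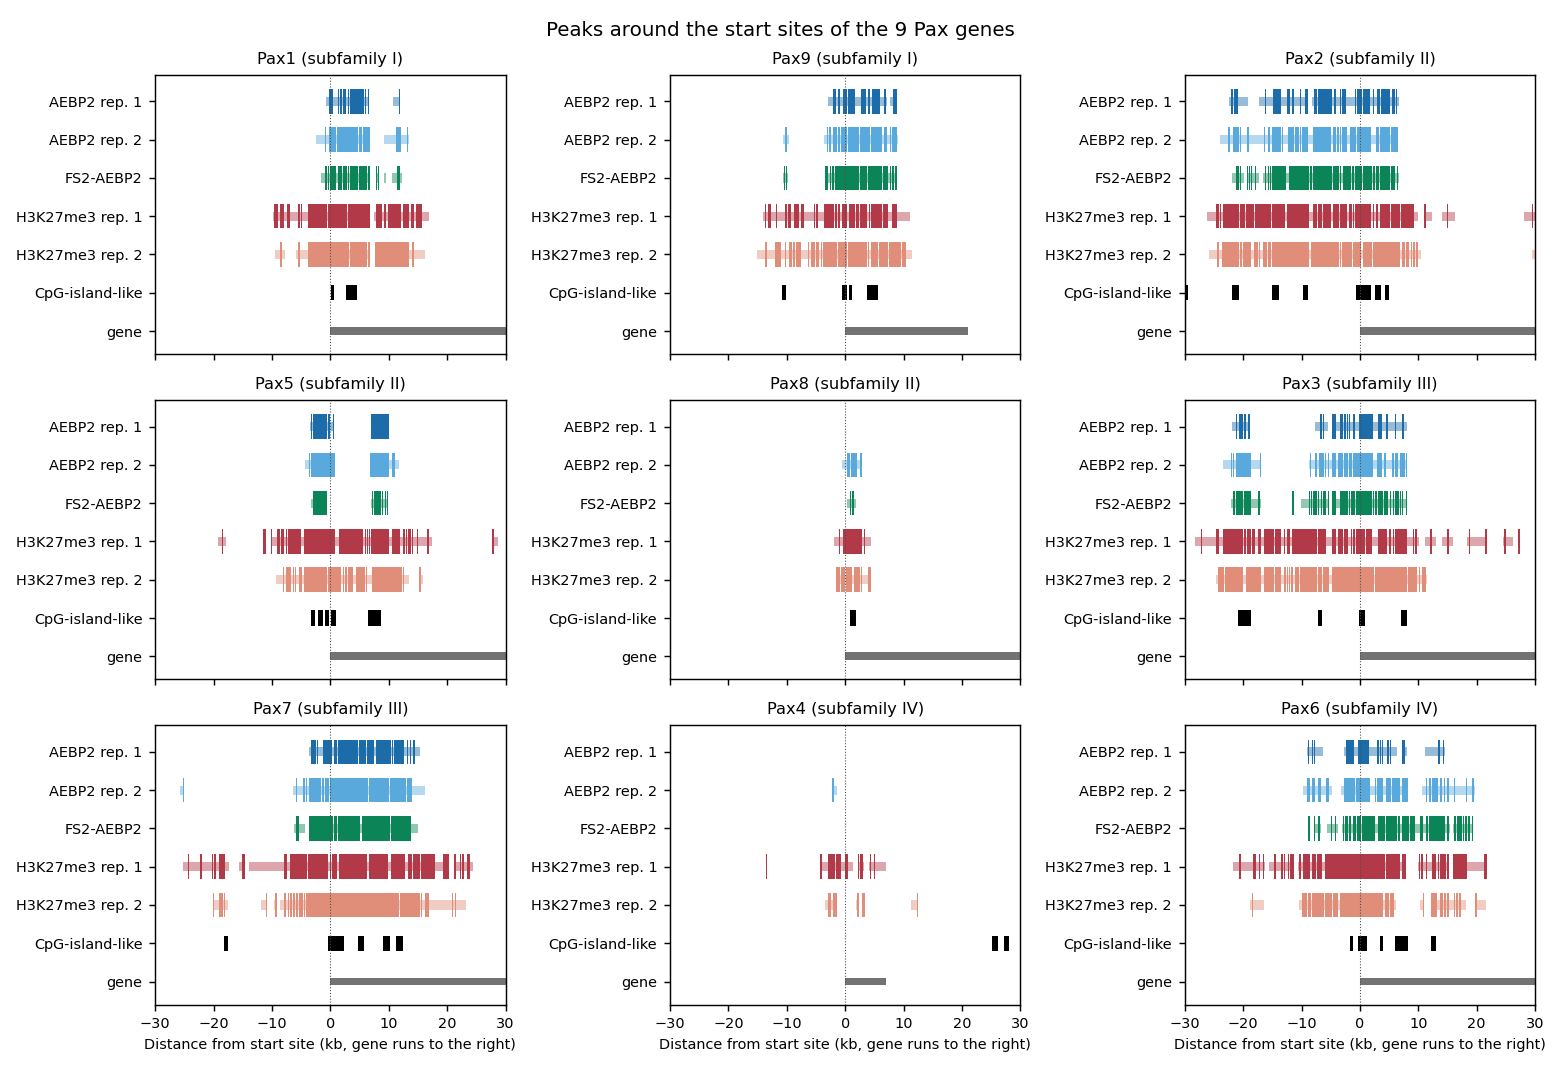
Peaks of the 5 lists within 30 kb of each start site, with distance from the start site in kb on the horizontal axis and 1 row per list. Pale bars are broad peaks, solid blocks their inner stretches, black blocks CpG-island-like regions and the grey bar the gene. Peaks of all 5 lists lie at 7 promoters, with the start site of Pax5 outside the FS2-AEBP2 peak (-3258 to -551), Pax8 carries shorter peaks, and Pax4 has 926 bp of AEBP2 upstream in replicate 2 alone.

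Pax1 and Pax9 are needed for the sclerotome, from which the vertebrae form, and for the thymus. At Pax1 (chromosome 2, 147187661 to 147219031, plus strand), the AEBP2 promoter peak spanned 7395 bp in replicate 1, 9160 bp in replicate 2 and 8239 bp for FS2-AEBP2. The H3K27me3 peaks were 16699 bp and 12670 bp long. The mark thus formed the longer domain in both of its replicates, and it reached further upstream than each AEBP2 peak, by 3425 bp to 9145 bp, while on the downstream side the ends of the AEBP2 and H3K27me3 peaks lay within 49 bp to 195 bp of each other. In score, the Pax1 peak lay above 90.9% and 97.1% of the peaks of AEBP2 replicates 1 and 2, 97.2% of those of FS2-AEBP2, and 95.0% and 98.1% of those of the H3K27me3 replicates.

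At Pax9 (chromosome 12, 57792754 to 57813809, plus strand), the AEBP2 peaks were 10032 bp, 12639 bp and 12371 bp long and the H3K27me3 peaks 25160 bp and 26664 bp. Its score ranks were close to those of Pax1, at 89.7%, 97.7% and 97.3% in the AEBP2 lists and at 97.3% and 99.4% in the H3K27me3 lists. AEBP2 covered 38.9%, 42.9% and 42.1% of the Pax9 gene body in the 3 lists, the most of the family in replicate 1 and exceeded by Pax6 alone in the others.

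Pax2, Pax5 and Pax8 act in kidney and midbrain, in B cells, and in thyroid and kidney respectively. At Pax2 (chromosome 19, 44830539 to 44912758, plus strand), the AEBP2 promoter peak was 15020 bp long in replicate 1, 30421 bp in replicate 2 and 23247 bp for FS2-AEBP2. It ranked above 94.9%, 98.9% and 99.9% of these lists by score, and above 97.3% and 97.1% of the H3K27me3 lists. The Pax2 peak took place 5 by length among the 6779 peaks of AEBP2 replicate 2 and place 3 by score among those of FS2-AEBP2. Next to its shorter promoter peak, AEBP2 replicate 1 had 2 further peaks upstream, of 8498 bp from -17345 to -8848 and of 3233 bp from -22465 to -19233, in bp from the start site. The joined AEBP2 region over the Pax2 promoter ran from -23914 to 6732 and held 6 CpG-island-like regions, defined as joined 500 bp windows with a GC content of 55% or more and a ratio of observed to expected CpG of 0.65 or more. Both H3K27me3 replicates enclosed all of it with peaks of 36085 bp and 36214 bp that shared 35710 bp.

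At Pax5 (chromosome 4, 44544017 to 44724318, minus strand), the AEBP2 promoter peaks were short beside those of the other Pax genes except Pax8, and the H3K27me3 domain was wide. The AEBP2 peaks measured 4124 bp, 5042 bp and 2708 bp, and the H3K27me3 peaks 27671 bp and 22724 bp. AEBP2 replicate 1 covered 26.1% and 31.8% of these H3K27me3 peaks, the lowest values of the 7 genes with a peak in that list. By score, the AEBP2 peaks ranked above 96.2% and 93.5% of the peaks of replicates 1 and 2, and above 84.8% of those of FS2-AEBP2. In the same lists they were longer than 89.1%, 94.7% and 83.3% of the peaks. The H3K27me3 peaks ranked by score above 98.4% and 93.3% of those of the H3K27me3 replicates. The FS2-AEBP2 peak, from -3258 to -551, left the start site itself outside.

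Pax8 (chromosome 2, 24276071 to 24331119, minus strand) had the shortest and lowest ranked peaks of the genes with AEBP2. Replicate 1 had no peak there, replicate 2 one of 3392 bp from -545 to 2846, and FS2-AEBP2 one of 1668 bp from 266 to 1933. The 2 peaks ranked above 67.4% and 26.7% of their lists, so that the tagged protein's peak lay in the lower part of its list. H3K27me3 was called in both replicates, over 6299 bp and 6037 bp, and at 85.1% and 59.8% in score rank. The CpG-island-like region nearest to the start site lay inside the gene, from 809 to 1838, within the peaks of AEBP2 replicate 2, FS2-AEBP2 and both H3K27me3 replicates.

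Pax3 and Pax7 specify neural crest and muscle precursors. At Pax3 (chromosome 1, 78097842 to 78193709, minus strand), the AEBP2 peaks were 12923 bp, 16742 bp and 12923 bp long, and the ends of those of replicate 1 and FS2-AEBP2 differed by 13 bp on each side. The score rank did not follow length here: the peak of replicate 1 was longer than 99.2% of its list but had a higher score than 47.2% of it. Its score of 7 was the median of that list and was held by 217 peaks. Replicate 2 placed the same promoter above 88.4% and FS2-AEBP2 above 96.3% of their peaks. The H3K27me3 peaks of 38350 bp and 36124 bp included the longest promoter peak of the family.

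At Pax7 (chromosome 4, 139292977 to 139389445, minus strand), all 5 lists were high by both measures. AEBP2 peaks of 18934 bp, 22553 bp and 18703 bp ranked above 94.3%, 97.7% and 99.8% of their lists by score. By length the peak took place 6 in AEBP2 replicate 1 and place 8 in replicate 2. H3K27me3 peaks were 34248 bp and 31733 bp long, and that of replicate 2 had place 36 by score among 9275.

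Pax6 directs eye, brain and islet development, and Pax4 the beta cells of the islet. At Pax6 (chromosome 2, 105509053 to 105543317, plus strand), the AEBP2 peaks were 9104 bp, 11482 bp and 18605 bp long and the H3K27me3 peaks 18493 bp and 16744 bp. By score they ranked above 85.0%, 76.7% and 93.9% of the AEBP2 lists and above 95.5% and 95.7% of the H3K27me3 lists. The FS2-AEBP2 peak was about as long as the H3K27me3 peaks, and it ended 7501 bp and 9223 bp downstream of them. Further H3K27me3 peaks lay in that stretch, so that 88.0% and 71.9% of the FS2-AEBP2 peak was covered by the mark in replicates 1 and 2.

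Pax4 (chromosome 6, 28392334 to 28399353, minus strand) had no AEBP2 promoter peak in any of the 3 lists. H3K27me3 replicate 1 covered the start site with a peak of 5572 bp from -4262 to 1309, at a score rank of 37.2%. In replicate 2 the nearest upstream peak, of 2044 bp, ran from -3453 to -1410 and so stopped short of the promoter window, as did the 926 bp peak of AEBP2 replicate 2, from -2257 to -1332. Within the gene body, H3K27me3 covered 75.9% in replicate 1 and 13.3% in replicate 2. The replicates of the mark thus differed at the Pax4 promoter, whereas the other 8 promoters had a peak in both.

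**Figure D2:**
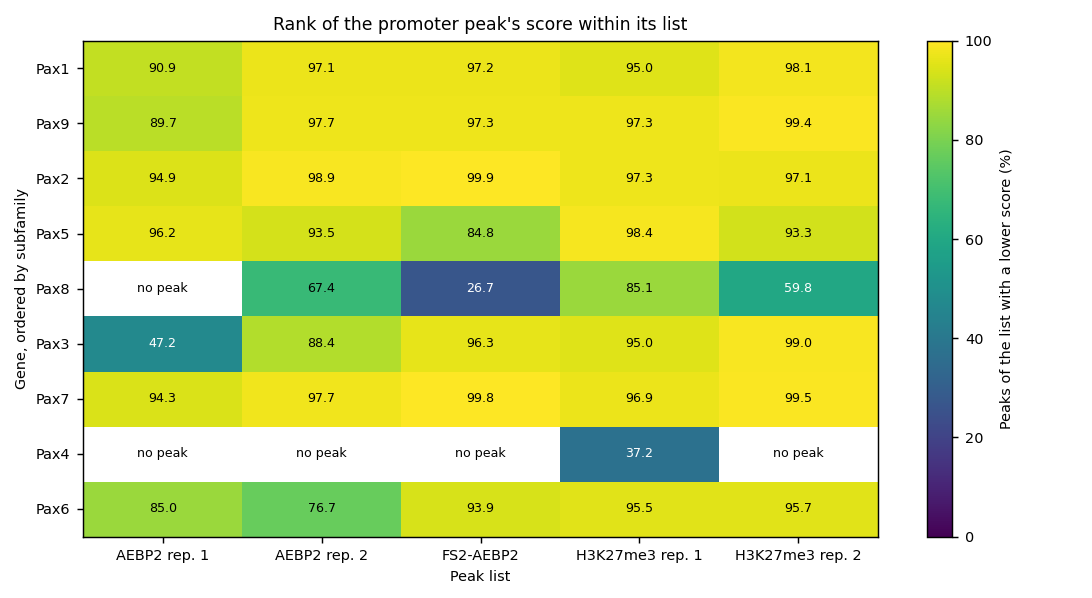
Score rank of the promoter peak of each Pax gene (rows, by subfamily) in each list (columns), as the percentage of the list's peaks with a lower score. White cells have no promoter peak. Of the 40 peaks, 29 lay above at least 90% of their list, and the share of all promoter peaks that did so was not computed. The lowest ranks are those of Pax8 in FS2-AEBP2 (26.7%), Pax4 in H3K27me3 replicate 1 (37.2%) and Pax3 in AEBP2 replicate 1 (47.2%).

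In all, 40 of the 45 combinations of gene and list had a promoter peak. The start site itself lay within 38 of these peaks and within an inner stretch of 35, for which no share over all promoters was computed. All 40 were longer than the median promoter peak of their list, and 36 had a score rank above the median for promoter peaks. That median rank was 47.2%, 51.9% and 52.9% in AEBP2 replicates 1 and 2 and FS2-AEBP2. It was higher in H3K27me3 replicates 1 and 2, at 79.4% and 68.1%, so a high rank there is less unusual for a promoter. The median length of the Pax peaks was 10032 bp in AEBP2 replicate 1, 12060.5 bp in replicate 2 and 12647 bp for FS2-AEBP2, whereas peaks at all promoters had medians of 1269.5 bp, 884 bp and 1281 bp. For H3K27me3 the Pax medians were 25160 bp and 24694 bp, against 4648.5 bp and 3586 bp. Because the lists differ in their number of peaks and their depth is unknown, lengths were set against the same list.

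**Figure D3:**
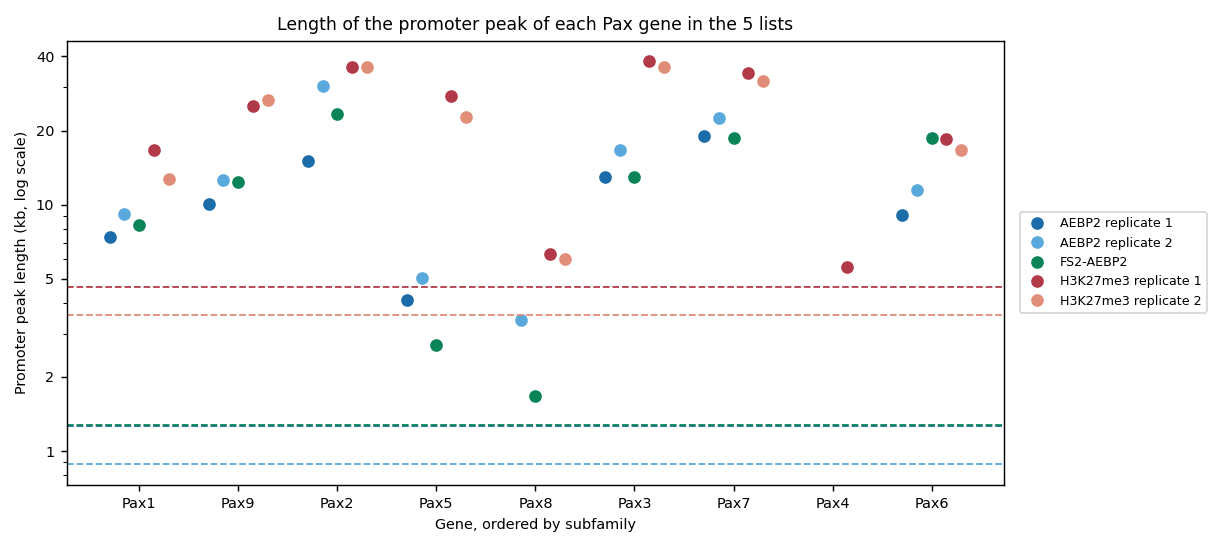
Length of each promoter peak in kb on a log axis, by gene and list, with dashed lines at the median promoter peak of each list (1269.5 bp for AEBP2 replicate 1 and 1281 bp for FS2-AEBP2 nearly coincide). Every point lies above its own list's line, Pax8 and Pax5 are lowest for AEBP2, and H3K27me3 exceeds AEBP2 at each gene with both except Pax6, where FS2-AEBP2 reaches 18605 bp.

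Peaks at the Pax promoters were also more filled. Inner stretches made up a median of 60.7%, 75.8% and 76.0% of the length of the Pax peaks in AEBP2 replicates 1 and 2 and FS2-AEBP2, against 45.5%, 53.0% and 48.8% at all promoters. For H3K27me3 the Pax medians were 68.6% and 76.4%, against 44.3% and 49.2%. The extremes among AEBP2 and FS2-AEBP2 peaks were 87.9% at Pax7 and 32.8% at Pax8, both for FS2-AEBP2.

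Most AEBP2 peaks at the Pax promoters sat inside the H3K27me3 domains. The share of all AEBP2 promoter peaks so enclosed was not computed, so nothing here sets the Pax genes apart in this. Of the 23 AEBP2 and FS2-AEBP2 promoter peaks, 20 lay wholly within H3K27me3 peaks of both replicates, and the other 3 were those of Pax6. At all 8 genes with AEBP2, the H3K27me3 promoter peak began further upstream than the AEBP2 peak. The margin at Pax3 was 16039 bp to 23438 bp, and at Pax8 1046 bp to 2117 bp. The AEBP2 promoter peak of replicate 1, the shorter one, was wholly inside that of replicate 2 at Pax1, Pax5, Pax6, Pax7 and Pax9. It was 98.5% and 99.8% inside at Pax2 and Pax3. In the other direction the share was lower. The peak of replicate 2 was 48.6% inside that of replicate 1 at Pax2, and between 77.0% (Pax3) and 84.0% (Pax7) at the other genes. Nothing in the lists says that the replicates came from separate cultures beyond the word biological in the design text.

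AEBP2 also had peaks away from the start sites. Within 50 kb of the Pax genes, the peaks of the 3 AEBP2 lists joined into 25 regions, of which 8 touched a Pax promoter and 17 did not. Of the 17, 5 had a peak in all 3 lists, 3 in 2 lists and 9 in 1 list. All 5 of the first kind carried H3K27me3 in both replicates, as did 20 of all 25 regions. A CpG-island-like region lay in 3 of these 5, in all 3 of the regions in 2 lists and in 2 of the 9 in 1 list. For the mark and for CpG-island-like regions, no share over all AEBP2 regions of the genome was computed, so these counts are a description.

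The 5 regions lay at 5 different genes. At Pax3 the region, from -23372 to -16904, held a CpG-island-like region and overlapped no annotated gene, and the lists differed in how it compared with the promoter peak. The scores of the region and of the promoter were 7 and 7 in AEBP2 replicate 1, 40 and 22 in replicate 2, and 38 and 60 in FS2-AEBP2. At Pax5 it ran from 6721 to 11699 in the gene, over a further annotated Pax5 transcript start. Its score was below that of the promoter in AEBP2 replicate 1 (6 and 28) and FS2-AEBP2 (11 and 27) and above it in replicate 2 (35 and 30). At Pax2 it lay at the 3′ end, from 77034 to 82739, over the start of the noncoding transcript 1700039E22Rik. The regions of Pax1, from 9106 to 13426 over an exon, and of Pax6, from -9736 to -3677 within the antisense transcript Pax6os1, held no CpG-island-like region. Peak lists carry no strand, so a peak over both Pax6 and Pax6os1 cannot be assigned to either.

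**Figure D4:**
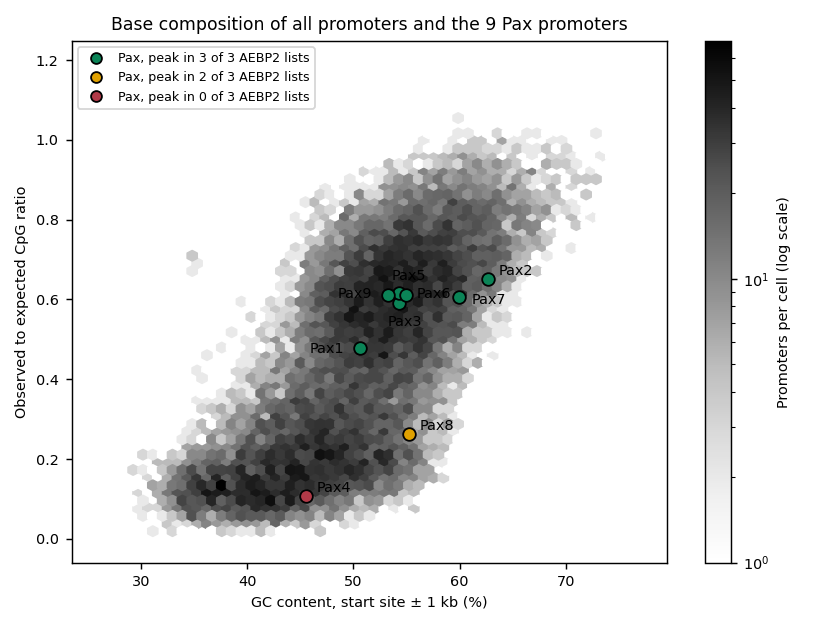
GC content in percent and observed to expected CpG ratio within 1000 bp of every start site, as grey hexagons whose shade gives the number of promoters on a log scale, with the Pax genes as points coloured by the number of AEBP2 lists with a promoter peak. Pax4 (0.107) and Pax8 (0.263) have the lowest CpG ratios of the 9, and Pax2 (0.652) the highest.

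The 7 genes with AEBP2 in every list had a higher CpG ratio at the promoter than Pax8 and Pax4. Their promoters had observed to expected CpG ratios of 0.479 at Pax1 to 0.652 at Pax2, and each held at least 1 full 500 bp window of CpG-island-like sequence. At Pax8 the ratio was 0.263, with 40 CpG, and at Pax4 0.107, with 11 CpG, and neither held such a full window. The Pax8 region from 809 to 1838 reached into the promoter window, so that 8 promoters were touched by such a region when an overlap of 1 bp was enough, a rule added after the data were seen. The median over all promoters was 0.468, with 61 CpG, and 54.1% held such a full window. GC content alone did not order the genes in this way, since the Pax8 promoter, at 55.2%, was richer in GC than those of Pax1 (50.6%), Pax3 (54.3%), Pax5 (54.3%) and Pax9 (53.3%), and slightly richer than that of Pax6.

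The background depends on the same feature. Among all promoters with a full window of CpG-island-like sequence, 15.9% and 39.0% had a peak in AEBP2 replicates 1 and 2, 11.3% in FS2-AEBP2, and 24.2% and 27.3% in H3K27me3 replicates 1 and 2. Among those without, the shares were 1.07%, 2.58%, 0.925%, 8.66% and 6.51%. All 5 lists had a peak at 7.94% of promoters with such a window and at 0.613% of those without. The 7 Pax promoters with a full window were in all 5 lists. Of the 8 touched by a CpG-island-like region, 7 were in all 5 lists, as were 8.04% of all promoters so touched, and Pax8 was in 4.

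Across the loci, with 50 kb on either side, there were 45 CpG-island-like regions. AEBP2 replicate 1 had a peak over 31 of them, against 15.2% of the 20675 such regions of the genome, replicate 2 over 36 (31.9%) and FS2-AEBP2 over 31 (12.4%). H3K27me3 had a peak over 39 in replicate 1 (25.5% of all such regions) and over 38 in replicate 2 (27.1%). In all, 29 were in all 5 lists (9.30%) and 6 in none (58.2%). Of those 6, 3 were in the window of Pax4, and those of Pax2, Pax5 and Pax7 had 1 each. The 3 at Pax4 lay outside the gene, from 25140 to 26259, 27240 to 28079 and -31740 to -30221. The first of them held the start of the neighbouring gene Arf5, at 25793. That of Pax5, from -45918 to -44879, lay near the start of Zcchc7, at -44431. All such regions of Pax1, Pax3 and Pax6 had a peak in all 5 lists.

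RefSeq promoter sequences of 7 Pax genes were matched to mm9 without mismatch and placed 10 start sites, of which 2, those of Pax8 and 1 of Pax6, were the annotated start sites described above. Of the 8 others, at 6 genes, 7 were in a peak of all 5 lists. The exception was the Pax5 site 752 bp downstream of the annotated start, which lay outside the peaks of AEBP2 replicate 1 and FS2-AEBP2. Pax2 had a RefSeq start at -9448, Pax6 one at 13567 and Pax9 one at 3704, and each lay in peaks of all 5 lists. The RefSeq starts of Pax1, Pax7 and Pax9, and those of Pax2 at -297 and 857, lay inside the promoter peaks already counted. They are thus no separate observation, and no share over the RefSeq starts of other genes was computed.

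Few genes stood near the Pax genes, and most of those carried no peak. Protein-coding genes with a start within 100 kb of a Pax start numbered 7, of which 5 were in no list. A given list had a peak at 6.53% (FS2-AEBP2) to 22.3% (AEBP2 replicate 2) of all promoters, so most promoters lack one in any given list. The share of all promoters in no list was not computed, and the 5 are a description. These were Arf5, Fscn3, Gcc1 and Snd1 near Pax4, and Zcchc7 near Pax5. Zfp800 near Pax4 had H3K27me3 in both replicates without AEBP2. Nkx2-9, a homeobox gene that starts 78483 bp upstream of Pax9, had a promoter peak in all 5 lists, and in none of them was it the peak that covers the Pax9 promoter.

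Genes known to work with Pax factors were marked unevenly. Of 69 such genes in 7 sets, 45 had a promoter peak in AEBP2 replicate 1 (65.2%, against 9.08% of all promoters). AEBP2 replicate 2 had one at 50 (72.5%, against 22.3%) and FS2-AEBP2 at 43 (62.3%, against 6.53%). Each H3K27me3 replicate had one at 52 (75.4%, against 17.0% and 17.7%). In all 5 lists there were 42, against 4.57% of all promoters, and 15 were in none. For the counts in none, here and by set, no share of all promoters was computed. The set of 12 kidney and midbrain-hindbrain genes, which holds partners of Pax2, had 10 in all 5 lists and 0 in none. In the set of 12 eye and neural genes, 9 were in all 5 lists, and the absent ones were Sox2, which maintains pluripotency, and Mitf, the regulator of pigment cells.

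The B cell set stood lowest. Of its 8 genes, Ebf1 and Lef1 were in all 5 lists, and 5 were in none. AEBP2 replicates 1 and 2 and FS2-AEBP2 had a peak at 2, 3 and 2 of the 8, against 9.08%, 22.3% and 6.53% of all promoters. Each H3K27me3 replicate had one at 3 of the 8, against 17.0% and 17.7%. In the thyroid set of 6, Nkx2-1 and Foxe1 were in all 5 lists, and Tg, which encodes thyroglobulin, was in none. Each H3K27me3 replicate had a promoter peak at 5 of the 6, and AEBP2 replicates 1 and 2 and FS2-AEBP2 at 2, 3 and 2. In the islet set of 12, 8 genes were in all 5 lists, and the hormone genes Ins1, Ins2 and Gcg were in none.

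Of the 10 myogenic and neural crest genes, 5 were in all 5 lists, and Myf5, Myog and Meox1 were in none. The sclerotome and thymus set of 9 had 6 in all 5 lists and 1, the thymus regulator Foxn1, in none. These sets were chosen with earlier results of the same lists known, so their counts are a description.

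**Figure D5:**
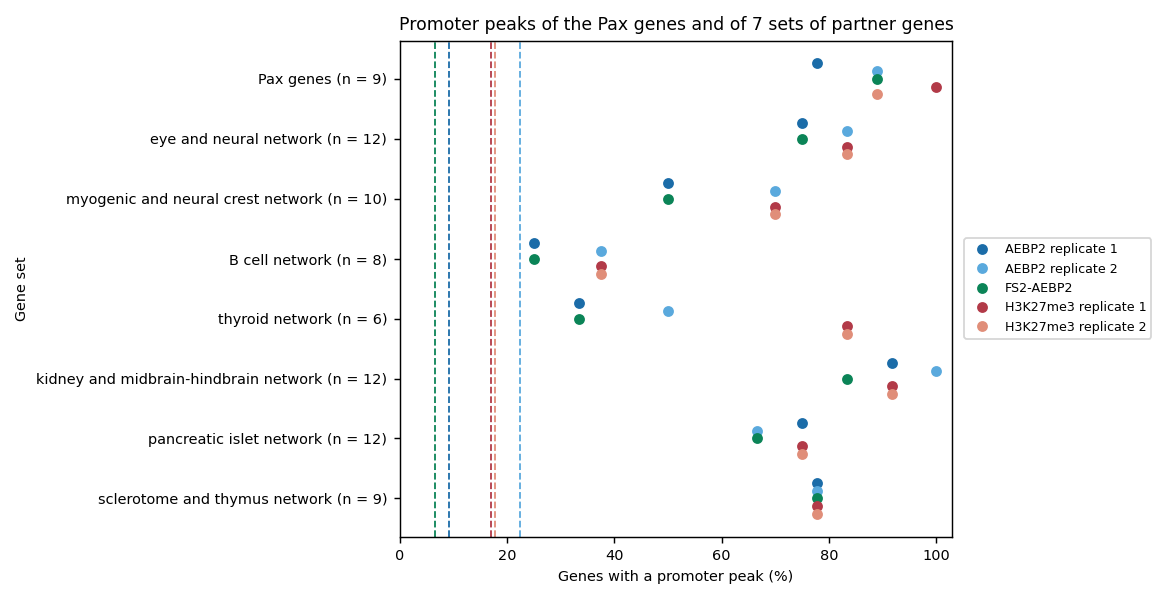
Share of genes with a promoter peak in each list, in percent, for the Pax genes and for 7 sets of genes that act with them (points coloured by list). Dashed lines give the share of all 22367 promoters in the same list, from 6.53% for FS2-AEBP2 to 22.3% for AEBP2 replicate 2. The B cell and thyroid sets lie furthest to the left for AEBP2, and the Pax genes lie at 7, 8, 8, 9 and 8 of 9.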

How the data were processed

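The authors aligned reads to mm9, called peaks separately in each sample and deposited 1 list per sample, with a start, an end, a whole-number score and inner blocks for each peak. Per the submitters' processing notes, Bowtie, SAMtools, Picard and MACS2 2.0.10.2 were used; settings, control libraries and the scale of the deposited score are not given in the sources used here. A more deeply sequenced sample yields more peaks, and depth is unknown.

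Peaks outside chromosomes 1 to 19, X and Y were left out, namely 2 peaks of AEBP2 replicate 1 and 13 of H3K27me3 replicate 2. Blocks of 1 bp that only mark the end of a peak were not counted as inner stretches. A promoter or gene body had a peak where at least 1 bp overlapped. The start site of a gene was the outermost 5′ end of its GENCODE vM1 record. CpG-island-like regions were joined 500 bp windows, taken every 10 bp, and a promoter was said to hold one where a whole window lay inside it. Positions are in bp from the start site, negative upstream. The code for promoter calls was run on simulated peaks at 15809 promoters. At a random part of them the peak was planted over the promoter, and at the rest well outside it. Of the planted ones 100% were recovered, with 0 false calls. No simulated peak lay near the limit of the call, so the run checks the code and not the calls on real peaks. Samples were grouped by their labels. The text names all 9 Pax genes, all protein-coding genes with a start within 100 kb, and partner genes present or absent in all 5 lists where a set has at most 4 of either. A partner set and 1 further partner gene are not reported here. Members, partner sets and measures were chosen with earlier results of these data known. Python 3.11.15, numpy 2.4.6 and matplotlib 3.10.9 were used.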

Additional observations from a re-analysis of the deposited data

How the results depend on the processing

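Promoter counts of Pax genes were recomputed with wider (2.5 kb) and narrower (500 bp) promoters, any annotated transcript start, only peaks at or above the median score of their list, at least 50% of the promoter covered, and peaks within 1 kb joined. Counts over several lists were also recomputed without each replicate, and gene body counts with at least 10% of the body covered and with only peaks at or above the median score. Of 66 values, 64 stayed within 1.5 times the count given in the report. Wider promoters, any annotated start, joined peaks and leaving out a replicate can only keep or raise a count. With promoter counts of 7 to 9 of 9 genes, values under these settings could not leave that range, so they say little about stability. The 2 that moved were gene body counts: with at least 10% of the body covered, AEBP2 replicate 2 and FS2-AEBP2 each called 5 of 9 genes in place of 8. AEBP2 replicate 1 also fell to 5, from 7, which is within 1.5 times. Each H3K27me3 replicate called 8 in place of 9. The genes that changed at the promoter were Pax4, Pax5 and Pax8. Pax4 gained AEBP2 replicate 2 and H3K27me3 replicate 2 at 2.5 kb, and the latter also with any annotated start. FS2-AEBP2 lost Pax5 at 500 bp, Pax8 at the median score, and both at 50% cover. Genes in all 5 lists numbered 6 or 7 under these settings. Without 1 replicate, the genes in all remaining lists numbered 7 or 8, those called by the remaining AEBP2 replicate 7 or 8, and those by the remaining H3K27me3 replicate 8 or 9. No paired analysis was possible because no result comes from a test. The lists hold no read counts, so a shallow library cannot be told apart from absent signal at Pax4 or Pax8.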
